A study of Rattus norvegicus with 48 samples.

Results

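In precision-cut rat liver slices, 103 of the 14418 genes in the authors' table of expressed protein-coding genes had a mean level at least 2 times that of vehicle with both multikinase inhibitors and a mean at most 25% above vehicle with the TGF-beta receptor inhibitor SB525334. The members were chosen on mean CPM (a gene's share of the library's total count, scaled to 1000000), with Sora and Nint means each at 1 CPM or more. The contrasts of each compound with vehicle therefore chose them, and those values are given as a description with no test.

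The slices, thin sections of living tissue kept outside the body, came from rats with bile duct ligation (BDL) or a sham operation. There were 48 libraries in 5 groups. Vehicle was given to sham slices (Sham_veh, 9 libraries) and to ligated slices (BDL_veh, 10 libraries), and further ligated slices received Sora (10 libraries of BDL_Sora), SB525334 (9 libraries of BDL_SB525334) or Nint (10 libraries of BDL_Nint). Vehicle below means BDL_veh unless sham is named. Sora is taken to be sorafenib and Nint nintedanib, since the labels carry short forms only. The sample titles name SB525334, while the deposited sample sheet gives those 9 libraries another compound code, so the identity of that compound rests on the titles. The labels give no dose, exposure time, strain, age or number of animals, so the spread between libraries may be technical, and p-values measure that spread only. In whole slices, fewer cells of a type and less RNA per cell cannot be told apart.

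Bile duct ligation blocks the outflow of bile and leads to cholestatic injury, bile duct proliferation and scarring driven by hepatic stellate cells and portal fibroblasts. Sorafenib inhibits RAF kinases and the receptors for vascular endothelial growth factor and platelet-derived growth factor. Nintedanib inhibits the receptors for vascular endothelial, fibroblast and platelet-derived growth factors. SB525334 inhibits the kinase of the TGF-beta type I receptor ALK5, which phosphorylates Smad proteins and drives matrix production.

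Genes carry Ensembl IDs without symbols in the files, and 0 of 32883 IDs matched the RefSeq table used here. The members are therefore described by their levels across the groups, and 4 IDs are named: the called members with the largest increases and decreases between sham and ligated vehicle slices. The liver identity of the slices, the cell types in them and the roles of the members could not be read from marker genes.

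Most members were scarce transcripts. Their vehicle means ranged from 0.243 to 125 CPM with a median of 2.52 CPM, and 20 of 103 were at 10 CPM or more. With Sora the member means ranged from 1.14 to 260 CPM (median 7.29), and with Nint from 1.18 to 280 CPM (median 7.32). With SB525334 they ranged from 0.0382 to 132 CPM (median 2.05). A count of 3 in a library, taken as the limit that a count of 0 allows, corresponds to 0.101 to 0.245 CPM. The scarcest members thus lay near or below that floor in sham, vehicle and SB525334 slices, with a lowest sham mean of 0.00639 CPM. Total counts ranged from 12249470 to 29596987 per library.

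The median member had 2.59 times its vehicle mean with Sora and 2.65 times with Nint. The ratios reached 8.79 with Sora and 8.50 with Nint, in different members. Both ratios were at least 3 in 22 members, at least 4 in 7 and at least 5 in 4. Over the whole coding table, 2.89% of IDs met the level and fold conditions for Sora, 2.78% met them for Nint and 309 met both. Of these 309, the limit on SB525334 kept 103, which is 33.3% of them and 0.714% of the coding table. The Sora ratio of the members nearest to the threshold was 2.03 and 2.07, and the nearest IDs below it had 1.98 and 1.99. For Nint these were 2.007 and 2.014 inside and 1.991 for both outside. For SB525334 they were 1.228 and 1.248 inside, and 1.256 and 1.261 outside. The lower of the Sora and Nint means was 1.14 and 1.18 CPM in the members nearest to the level minimum, and 0.901 and 0.937 CPM in the nearest IDs below it. Another 42 IDs failed the fold for Sora only, 46 the fold for Nint only, 37 the level minimum only and 206 the SB525334 limit only.

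**Figure D1:**
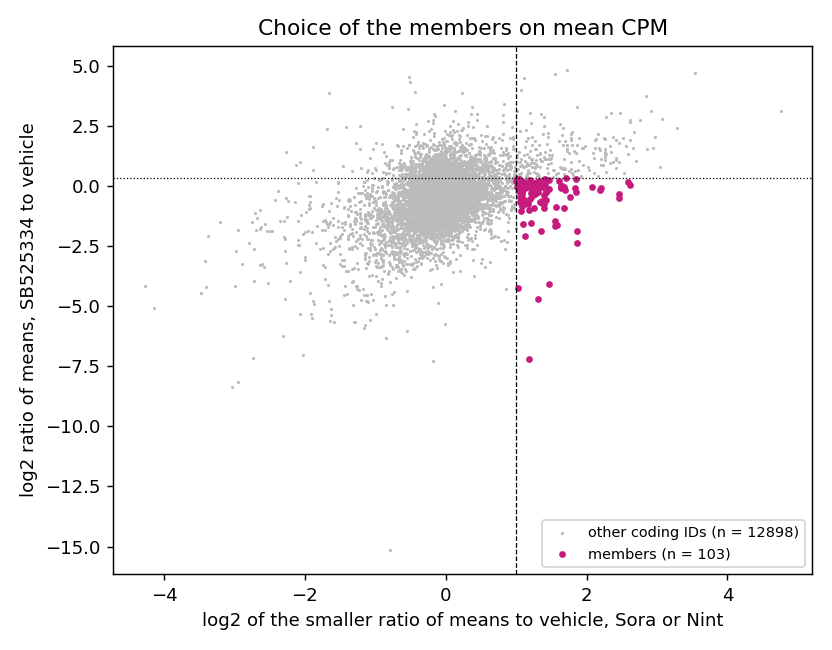
Each point is 1 coding ID at 1 CPM or more with Sora and with Nint. The x axis is the log2 of the smaller of the Sora and Nint ratios of mean CPM to vehicle, the y axis the log2 ratio for SB525334, the dashed line the fold of 2 and the dotted line the SB525334 limit, 25% above vehicle. The 103 members fill the lower right corner, and 206 IDs lie above them.

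The members were spread widely below the SB525334 limit. The SB525334 ratio to vehicle ranged from 0.00683 to 1.248 with a median of 0.876. It was under 0.1 in 4 members, under 0.5 in 14 and under 0.8 in 41, and 62 members lay between 0.8 and the limit. The mean was above that of vehicle in 30 members. Over the 13074 coding IDs at 1 CPM or more in vehicle the median ratio on the same scale was 0.763. Of the members, 89 of 103 reached that vehicle level. The rule limits this ratio and used the vehicle mean, so nothing about the members is drawn from these medians.

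The scale moved membership. Scaling by total counts left the median coding gene lower with SB525334 than with vehicle by -0.39 on the log2 scale, and TMM factors, which assume that most genes do not change, put this median at 0.02. With TMM-scaled library sizes, 71 IDs met the rule, 64 of them members, and 39 members left because SB525334 then passed its limit. No member left through the Sora or Nint fold. With TMM-scaled sizes, 64 of the 103 members had an SB525334 mean above vehicle, in place of 30. Of the members, 53 met the rule with total counts, with TMM-scaled sizes, with the authors' log2 CPM and without vehicle libraries 3 and 6.

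The SB525334 libraries did not act as a uniform group. In libraries 1, 6 and 8 the numbers of members above their vehicle mean were 65, 67 and 71 of 103. In the other 6 libraries they were 6 to 16. The median log2 ratio of the members to the vehicle mean, computed on CPM plus 0.1 and called the library level below, was 0.37, 0.32 and 0.66 in libraries 1, 6 and 8. It ran from -1.78 to -0.62 in the others. Libraries 1, 6 and 8 were singled out with earlier results of these data known, and the rule used all 9, so the counts that follow describe the split and do not test it. All 3 libraries lay above all 6 others in 64 of the 103 members, beside 22.9% of coding IDs, and the opposite order was found in 0 members, beside 7.86% of coding IDs. The mean of the 3 was above the mean of the 6 in 92 members (60.0% of coding IDs). The mean of libraries 1, 6 and 8 was over 25% above vehicle in 61 members, and that of the other 6 in 1. The rule limits the mean of all 9, so where the 3 passed that limit the other 6 had to lie below it. Shares of coding IDs were not counted for these 2 numbers or for the members above their vehicle mean in each library. Every vehicle library was above every SB525334 library in 7 members (33.3% of coding IDs), and in 26 (42.4%) without libraries 1, 6 and 8.

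In the authors' quality metrics, the share of reads mapped non-uniquely was lowest in these 3 libraries among the 9, at 11.27%, 9.85% and 10.94%, with 13.42% to 20.85% in the other 6 (vehicle 8.10% to 8.89%). Their mitochondrial shares were 2.19% to 2.48%, and 2.49% to 4.49% in the others. The part of these differences in the members' levels was not tested. Without the 3 libraries the rule chose 201 IDs, 102 of them members.

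**Figure D2:**
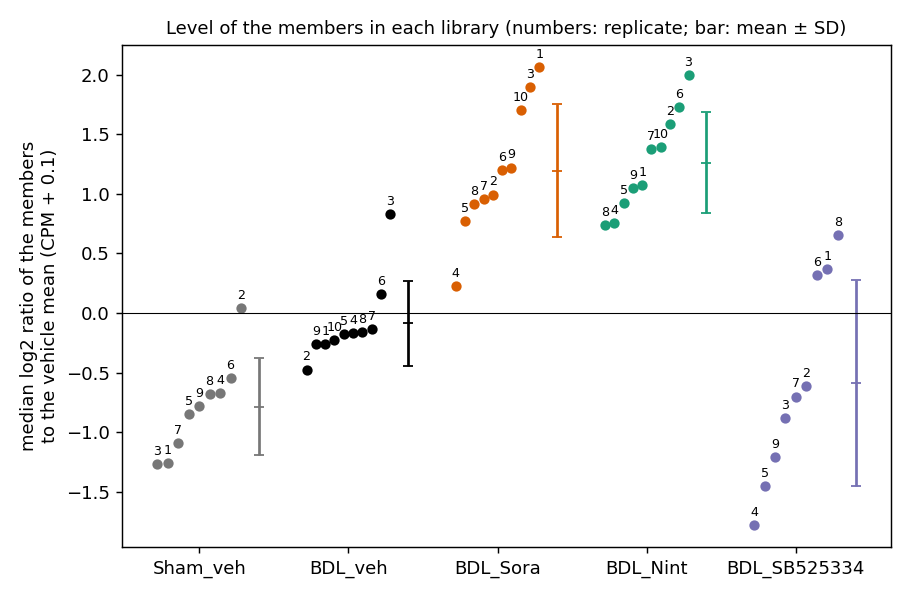
Library level of the members in each of the 48 libraries: the median over 103 members of the log2 ratio of CPM plus 0.1 to the vehicle mean plus 0.1. Numbers are replicates and bars the group mean ± SD. SB525334 libraries 1, 6 and 8 and vehicle library 3 stand above the rest of their groups.

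Levels varied widely between libraries inside the other groups too. The library level was 1.19 ± 0.557 (SD, n = 10) with Sora, with a lowest value of 0.23, a median of 1.10 and a highest of 2.06. With Nint it was 1.26 ± 0.424 (n = 10), from 0.73 over a median of 1.22 to 1.998. In vehicle slices it was -0.09 ± 0.359 (n = 10), from -0.47 over -0.17 to 0.83, and in sham slices -0.79 ± 0.406 (n = 9), from -1.27 over -0.78 to 0.04. All 10 Nint libraries lay above 9 of the 10 vehicle libraries, and so did all 10 Sora libraries. Vehicle library 3, at 0.83, lay above Sora libraries 4 and 5 and Nint libraries 4 and 8.

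Summed over the members, the level was 1053 ± 267 CPM with vehicle, 2641 ± 711 CPM with Sora, 2832 ± 550 CPM with Nint and 1009 ± 494 CPM with SB525334. Sham slices held 1645 ± 470 CPM. The sum is carried by few members, 6 of which had 100 CPM or more with both Sora and Nint. Against sham, 4 of these 6 were called lower in ligated vehicle slices, 1 higher and 1 neither way. Of all genes tested 42.2% were lower and 40.0% higher, and 6 members are too few to set against these shares.

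In each group 1 library was the highest for 48 or more of the 103 members. The libraries named here are those with the highest counts. Vehicle library 3 was the highest of the 10 vehicle libraries in 70 of 103 members, beside 18.5% of coding IDs. It had 42 members at 2 times the vehicle mean or more, library 6 had 9 and the other 8 libraries 0 or 1. Sora library 1 was the highest of its group in 54 members (14.2% of coding IDs) and Sora library 4 the lowest in 53 (11.0%). Nint library 3 was the highest in 48 members (7.21%). In the SB525334 group, library 8 was the highest in 54 members (26.9%) and library 4 the lowest in 51 (26.4%). Sham libraries, which the rule did not use, showed the same kind of pattern: library 2 was the highest of 9 in 48 members, beside 11.7% of coding IDs.

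In each group the library with the highest library level had a low share of reads from lincRNA, a class of long non-coding transcripts, in the authors' quality metrics. Sham library 2 had 0.97%, the lowest of its 9 libraries. Vehicle library 3 had 0.53% (0.53% to 0.70%), Sora library 1 had 0.46% (0.46% to 0.54%), Nint library 3 had 0.56% (0.55% to 0.66%) and SB525334 library 8 had 0.68% (0.68% to 0.94%). It was the lowest value of the group in 4 of these 5 cases. The authors deposited many other quality metrics, so some metric can line up with these libraries by chance. No allowance was made for this choice. Whether the lincRNA share has a part in the members' levels was not tested.

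The members varied more between vehicle libraries than coding genes of like vehicle level. Among the 69 members with a vehicle mean of 1 to 10 CPM, the median coefficient of variation was 38.3% in vehicle slices, and 19.9% over the 3518 coding IDs in that range. The same 2 sets, matched on the vehicle level only, had 45.9% and 22.3% with Sora and 45.4% and 22.2% with Nint. With SB525334 they had 77.3% and 34.2%. In sham slices, which the rule did not use, the values were 63.2% (69 members) and 33.7% (3511 IDs). The rule used the other groups, and a fold between means can favour variable genes, so these values are a description. Every Sora library was above every vehicle library in 22 of 103 members (2.09% of coding IDs), every Nint library in 27 (2.81%) and both in 18 (1.24%). The rule used these contrasts, so these counts are a description. Without vehicle library 3 the counts were 31 (3.16%), 50 (4.36%) and 26 (2.09%).

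**Figure D3:**
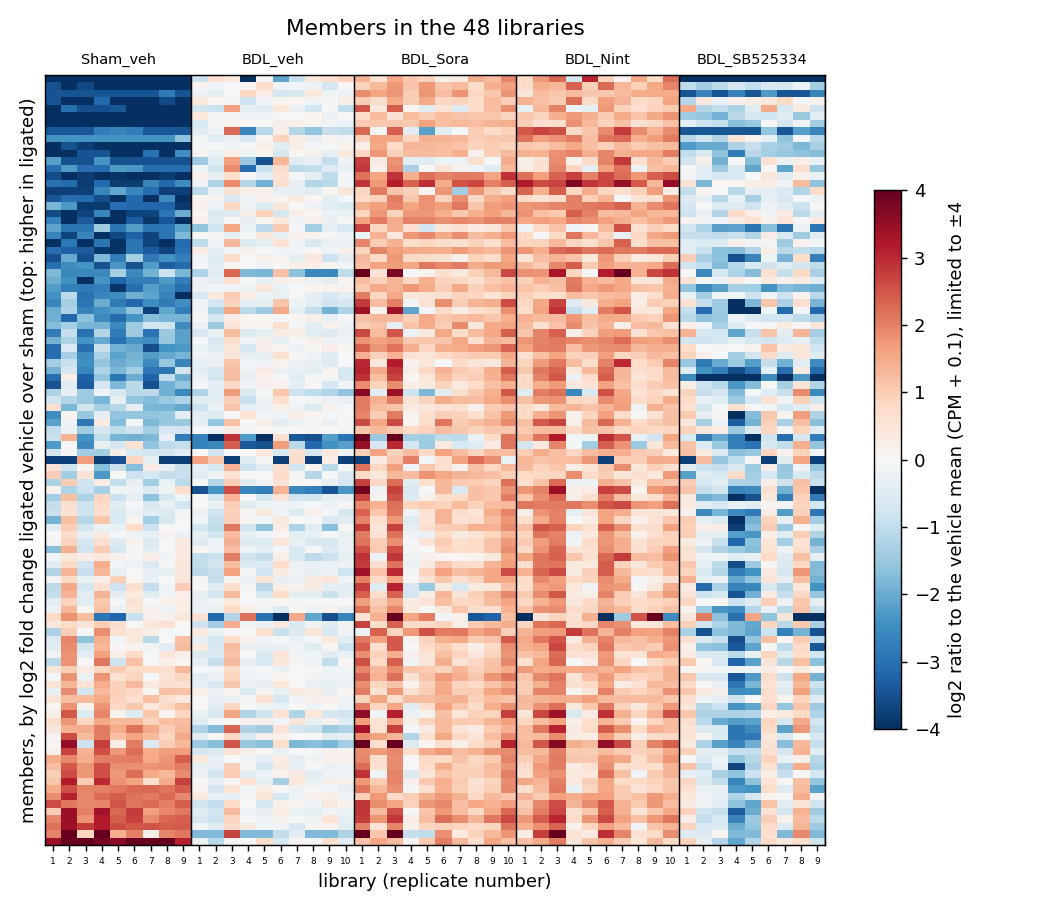
Log2 ratio of each member (row) to its vehicle mean in each library (column), on CPM plus 0.1 and limited to ±4. Rows run from members higher to members lower in ligated vehicle than in sham slices. The 44 members higher with ligation are mostly at the top and dark blue in sham, the 32 lower ones at the bottom are red there, and SB525334 libraries 1, 6 and 8 differ from the other 6.

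The ligation contrast, ligated against sham slices with vehicle, asked how the members behaved in the injury itself. It used all 103 members, which passed the filter on low counts, in a fit to 14775 genes. The sham libraries had no part in the rule, but the 10 vehicle libraries whose level chose the members are in both, so the calls are not independent of it. Of the members, 44 (42.7%) were higher in ligated slices, 32 (31.1%) lower and 27 not called (edgeR, quasi-likelihood, with Benjamini-Hochberg adjustment at 0.05; n = 10 and 9). Over all genes tested 40.0% were higher and 42.2% lower. The share of increases was thus near the background. The members' median log2 fold change was 0.17, beside -0.05 over all genes. When library sizes were total counts, without TMM factors, 47 members were higher and 24 lower, and 53.2% and 27.3% of all genes. Without vehicle libraries 3 and 6 the counts were 41 and 41, beside 39.1% and 42.0% of all genes.

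Members higher with ligation started from very low sham levels. Their median mean level was 0.164 CPM in sham, 1.99 CPM in vehicle, 7.26 CPM with Sora and 6.72 CPM with Nint slices, and 24 of the 44 had a sham mean under 0.2 CPM. The log2 fold changes ran from 0.50 to 6.35 with a median of 3.25, and 15 were 4 or more, a 16-fold change. In sham libraries 3 counts correspond to 0.173 to 0.221 CPM, so the size of a fold from such a sham mean is uncertain. The share of all genes with a 16-fold change was not counted. Every vehicle library was above every sham library in 32 of all 103 members (31.1%), each of them among these 44, beside 36.6% of coding IDs. Sora and Nint means lay further from sham than vehicle did in 44 of 44, which the rule and the call together fix. The SB525334 ratio to vehicle had a median of 0.665 in these members, and 0.875 with TMM-scaled sizes, and 28 of the 44 were under 0.8.

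ENSRNOG00000053812 showed the largest increase. In sham slices 7 of 9 libraries rounded to 0 counts and the highest held 0.895 CPM. In vehicle slices the lowest, median and highest values were 0.575, 19.6 and 32.9 CPM. With Sora these were 20.4, 39.5 and 67.1 CPM, and with Nint 10.3, 42.0 and 144 CPM. With SB525334 7 of 9 libraries rounded to 0 counts and the highest held 0.566 CPM. Sham and SB525334 thus lay at the bottom without overlap with Sora or Nint, and vehicle overlapped with Sora, Nint and, at its lowest library, sham. Its mean was 0.152 ± 0.320 CPM in sham (n = 9) and 17.3 ± 11.0 CPM in vehicle slices (n = 10), and the pooled counts gave a ratio of 115 (95% counting interval 76.2 to 181). The edgeR log2 fold change was 6.35 (SE 0.711, adjusted p = 4.41e-11). It ran from 6.17 to 7.60 when each library was left out, the highest value being without sham library 4. In 70.8% of libraries its count was not whole, and the rest were the 7 sham and 7 SB525334 libraries that rounded to 0. Reads were thus shared with another transcript wherever the ID was detected. Most libraries that rounded to 0 held a minute positive value, such as 1.17e-41 CPM in sham library 1. Shared reads may have been assigned elsewhere there too, so these zeros do not show absence. The level and ratio of this ID are uncertain.

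ENSRNOG00000023320 was scarce. Sham slices held 2 counts over 9 libraries, 7 of them at 0, and vehicle slices held 1.10, 1.73 and 3.05 CPM (lowest, median, highest). Sora gave 3.17, 4.63 and 6.37 CPM and Nint 3.09, 4.96 and 9.71 CPM. SB525334 gave 0.638, 0.875 and 1.55 CPM. Both kinase inhibitor groups lay wholly above vehicle, and SB525334 overlapped with vehicle at its upper end. Pooled counts gave a ratio of vehicle to sham of 132 (95% counting interval 36.1 to 1093; edgeR log2 fold change 6.09, SE 0.407, adjusted p = 1.14e-18).

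Members lower with ligation behaved otherwise. Their median mean level was 11.0 CPM in sham, 3.24 CPM in vehicle, 10.6 CPM with Sora, 9.19 CPM with Nint and 3.07 CPM with SB525334 slices. The log2 fold changes ran from -4.23 to -0.68 with a median of -1.74. Every sham library was above every vehicle library in 10 of all 103 members (9.71%), each of them among these 32, beside 12.6% of coding IDs. With Sora and with Nint the means were nearer to sham than vehicle was in 22 and 23 of 32 members, and in 28 and 26 with TMM-scaled sizes. Since the rule puts both compounds above vehicle and the call puts sham above vehicle, movement toward sham is fixed by the choice, and how far the means went is a description. In 25 of 32 both means were within 2-fold of sham. The mean reached or passed that of sham in 17 of 32 members with each compound, and in 13 (Sora) and 15 (Nint) with TMM-scaled sizes.

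In these 32 members SB525334 left the group mean near vehicle, with a median ratio of 0.963, and 5 of 32 were under 0.8. That median joins unlike libraries. It was 1.90 for the mean of libraries 1, 6 and 8 and 0.467 for the mean of the other 6. In members higher with ligation these were 0.849 and 0.520, and in the 27 members not called 1.69 and 0.478. With TMM-scaled sizes the median SB525334 ratio was 0.875 for members higher with ligation, 1.246 for those lower and 1.19 for those not called.

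**Figure D4:**
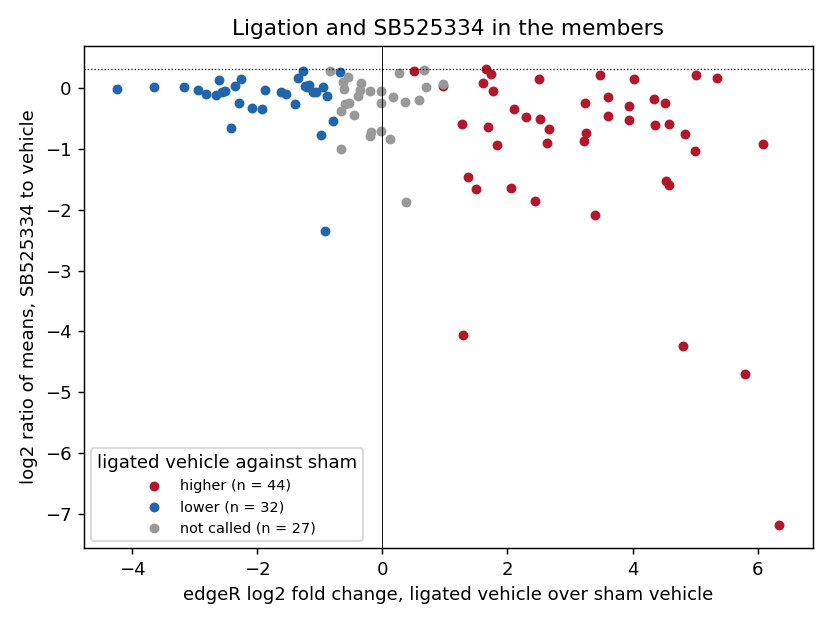
Each point is 1 of the 103 members. The x axis is the edgeR log2 fold change of ligated over sham vehicle slices, the y axis the log2 ratio of mean CPM of SB525334 to vehicle, and the dotted line the SB525334 limit, 25% above vehicle. Of the 14 members with an SB525334 ratio under 0.5, 12 are among the 44 higher with ligation.

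Low SB525334 values fell mostly among members that were higher with ligation. Of the 14 members under 0.5 times vehicle, 12 were higher with ligation, and so were all 4 members under 0.1. Of all 103 members 44 were higher, and of all genes tested 40.0%. The share among other coding IDs with ratios this low was not counted, so the pattern is not shown to be particular to the members. Both axes of that plot hold the vehicle mean, so the order of the points is a description.

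ENSRNOG00000029861 showed the largest decrease among the members. Sham slices held 71.2, 129 and 151 CPM (lowest, median, highest) and vehicle slices 3.81, 8.04 and 12.9 CPM. Sora gave 8.51, 19.1 and 33.9 CPM and Nint 11.2, 18.1 and 34.8 CPM. SB525334 gave 1.85, 6.11 and 15.5 CPM. Sham lay wholly above the 4 ligated groups, and these overlapped with each other. The mean fell from 119 ± 27.2 CPM (n = 9) to 8.09 ± 2.97 CPM (n = 10), with an edgeR log2 fold change of -4.23 (SE 0.284, adjusted p = 2.81e-18). Its counts were not whole in 100% of libraries, so this level too is shared with another transcript.

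ENSRNOG00000019481 had the next largest decrease, in a group of low and uneven values. Sham slices held 0.298, 1.254 and 8.05 CPM. In vehicle slices 6 of 10 libraries rounded to 0 counts and library 3 held 2.16 CPM, the next highest being 0.154 CPM. Sora gave 0.0692, 0.688 and 8.89 CPM, Nint 0.325, 0.817 and 5.74 CPM, and SB525334 0, 0.141 and 1.21 CPM. All groups overlapped. The edgeR log2 fold change was -3.64 (SE 0.903, adjusted p = 3.09e-04; n = 10 and 9), and -6.37 without vehicle library 3, both of which depend on the prior count where most vehicle libraries are at 0. Its ratios of 8.79 (Sora) and 6.11 (Nint) rest on a vehicle mean of 0.243 CPM that this library mostly made.

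**Figure D5:**
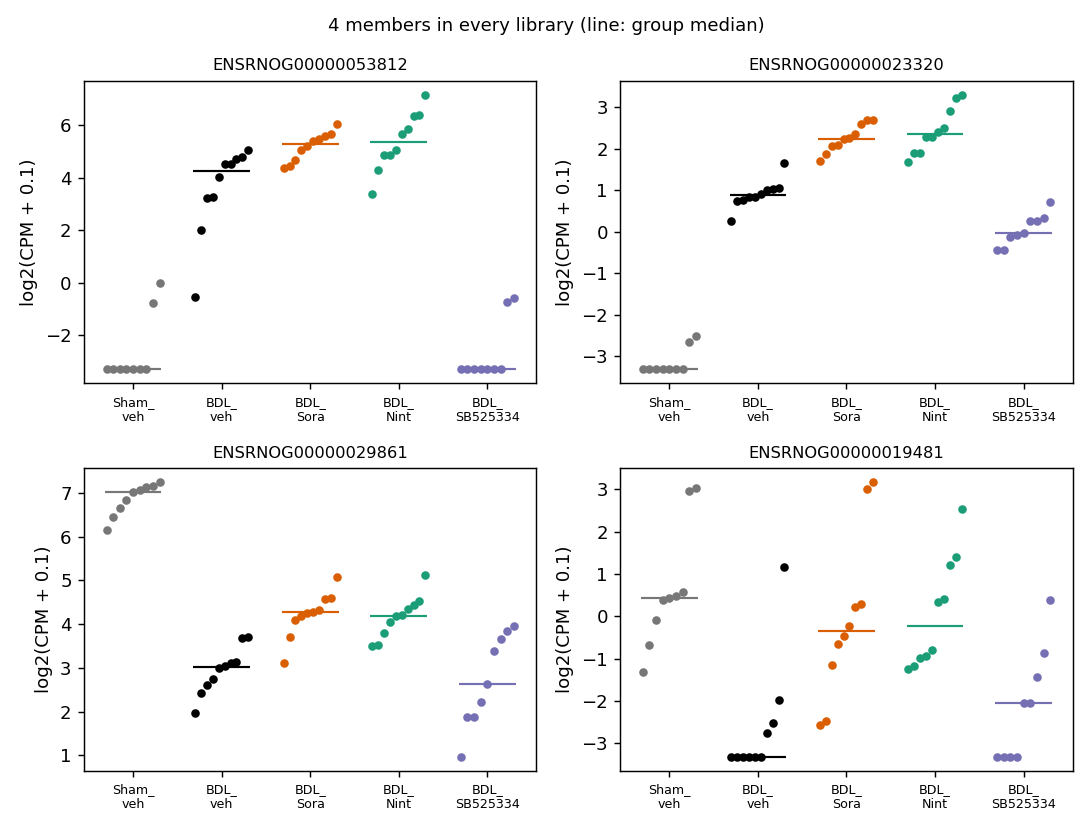
Log2 of CPM plus 0.1 in every library for the 4 named members, with the group median as a line. In the upper row sham has the lowest median, shared with SB525334 for ENSRNOG00000053812, and the 2 IDs in the lower row have their highest medians there.

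Nint and Sora were then compared directly, which the rule does not do, since it asks that both be high but not which is higher. The Nint mean was above the Sora mean in 50 of 103 members, and the means differed by 1.5 times or more in 5. The members' median log2 fold change of Nint over Sora was -0.03, beside -0.01 over all genes, and ranged from -0.68 to 1.15. edgeR called 3 members higher and 0 lower with Nint (adjusted p under 0.05; n = 10 and 10), beside 1.37% and 0.948% of all genes. At an unadjusted p under 0.05 there were 8 members. The share of all genes at that threshold was not counted, so nothing about the members is drawn from it. DESeq2 called 5 higher and 0 lower, beside 377 (2.55%) and 221 of the 14775 genes tested.

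The 3 called members were abundant for the module. The first held 24.997 ± 4.39 CPM with Nint and 16.7 ± 3.25 CPM with Sora, with 8 of 10 Nint libraries above the highest Sora library (edgeR log2 fold change 0.56, SE 0.136, adjusted p = 0.0183). The next held 119.7 ± 15.5 and 81.8 ± 19.5 CPM, with 7 of 10 Nint libraries above the highest Sora library (0.52, SE 0.147, adjusted p = 0.0456). The last held 219 ± 48.8 and 129 ± 45.8 CPM, with 2 of 10 above it (0.73, SE 0.209, adjusted p = 0.0498). In the first and the next, vehicle was higher than sham by the ligation test, and the last was not called there. The count of 3 fell to 1 without any of Sora libraries 2 and 4 to 10 and without any of Nint libraries 1 to 4, 6, 7 and 10. A member that is not called is not shown to respond alike to both compounds.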

How the data were processed

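Total RNA from the slices was sequenced as standard Illumina libraries, per the labels. The deposited count table holds expected counts per gene for 32883 genes; RSEM, edgeR and the build Rnor_6.0 are named with no versions, per the submitters' processing notes. Of its values 8.02% were not whole (tolerance 1e-06), and they were rounded for the count tests. The authors deposited a 2nd table of log2 CPM for 14418 genes, which its name calls expressed and protein coding. They also deposited 172 quality metrics per library as other values. Read 1 was antisense in at least 98.4% of cases per those metrics; the strand setting of the counting is not given in the sources used here.

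CPM for the rule used total counts. Genes were filtered with filterByExpr and tested with edgeR 4.0.16 (TMM, glmQLFit with robust estimation, glmQLFTest; R 4.3.3) on 48 libraries with 1 coefficient per group, adjusted over 14775 genes; standard errors come from the F statistic. Alternatives used DESeq2 1.42.0 and limma 3.58.1. On simulated data with 50 genes changed per fold, the test recovered 90% at 2-fold and 68% at 1.5-fold for ligation among 14688 genes, and 98% and 82% for Nint against Sora among 14674 genes, with 9 and 7 false calls. The simulated libraries all had the levels and spread of the vehicle libraries, apart from the changed genes. In the data many more genes changed with ligation, and the members varied more than coding genes of like level. These rates are therefore not the recovery for the members. Counting intervals are exact at the 95% level and, like floors of 3 counts, cover counting error only. The members, lists and tests were chosen with earlier results of these data known. Named IDs are the called members with the 2 largest increases and 2 largest decreases with ligation. The 28 gene and marker lists need symbols and were not used, and no sequence is shown for the same reason.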

Additional observations from a re-analysis of the deposited data

Results flagged for a closer look

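Vehicle library 3 lay far from the other 9 vehicle libraries in the library level of the members, at 0.83, the next being 0.16, and in their summed level, at 1770 CPM, the next being 1157 CPM. It also stood apart in ENSRNOG00000019481, at 2.16 CPM. In the same sense vehicle library 5 was high in ENSRNOG00000023320, at 3.05 CPM with a next value of 1.98 CPM. Nint library 3 was high in ENSRNOG00000029861, at 34.8 CPM (next 23.1 CPM), and in ENSRNOG00000019481, at 5.74 CPM (next 2.55 CPM). SB525334 library 8 was high in ENSRNOG00000019481, at 1.21 CPM (next 0.451 CPM). These are 7 values apart from their group in 30 sets of values, each judged by the gap to the nearest library against the group's range. The cutoff flags about 1 in 20 sets by chance if values are independent and normally distributed. Several of these sets hold low and uneven CPM, some come from the same members, and the vehicle libraries chose the members. The 7 are therefore not set against that rate.

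Nint and Sora differed, by the edgeR test of the difference itself, in 3 members, with log2 fold changes of Nint over Sora of 0.52, 0.73 and 0.56.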

How the results depend on the processing

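The number of members was 315 with a fold of 1.5, 22 with a fold of 3, 63 with a minimum of 5 CPM, 201 without SB525334 libraries 1, 6 and 8, and 18 if every Sora and Nint library had to lie above every vehicle library. Leaving out each library in turn gave 91 to 136 (88 to 103 of them members). Other settings stayed within 1.5 times: 75 with the authors' log2 CPM (71 of them members), 100 with medians (71), 73 and 133 with SB525334 limits of 1 and 1.5, and 131 without vehicle libraries 3 and 6 (80).

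For ligation, 28 members were higher with the filter of 5 CPM in 9 libraries, which tested 69 of them. Leaving out each library gave 43 to 45 higher and 25 to 36 lower, and the other alternatives 24 to 41 lower. For Nint against Sora the count of called members was 5 with DESeq2. It was 6 with the 2 groups alone (5 higher and 1 lower, beside 6.66% and 4.66% of all genes). It was 1 with no filter, 1 with limma on the authors' log2 CPM, and 1 to 3 leaving out each library. With plate column added to the fit it was 1. Plate column is a reading of the digits in each library's code, taken as a position on a plate. The cause of these differing counts was not tested. All 4 named IDs kept their direction and call for ligation in every alternative that tested them.

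Same-numbered libraries share a number only: their deviations from group means correlated at -0.25 to 0.20 over 9 pairs (vehicle and sham) and -0.26 to 0.46 over 10 (Nint and Sora), with 2 and 0 correlating best with their own number. With the replicate block 45 members were higher and 34 lower for ligation, and 3 were called for Nint against Sora, 2 of them the same members. The library level with SB525334 was -0.59 ± 0.861 with total counts and -0.20 ± 0.814 with TMM-scaled sizes, an alternative chosen after seeing the data, as was a pseudocount of 1 CPM, which gave -0.32.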

Other observations

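The 206 coding IDs that met the Sora and Nint conditions but had an SB525334 mean over 25% above vehicle are the nearest neighbours of the members. Against sham, 131 (63.6%) of them were lower in ligated vehicle slices and 37 (18.0%) higher (edgeR adjusted p under 0.05), beside 32 (31.1%) and 44 (42.7%) of the 103 members. Over all genes tested 42.2% were lower and 40.0% higher, so the members' share of increases lay near the background. The 206 IDs and the members share their vehicle libraries with that contrast, and the difference between these sets was not tested. Vehicle library 3 was the highest vehicle library in 174 of the 206, beside 70 of 103 members and 18.5% of coding IDs. SB525334 libraries 1, 6 and 8 all lay above the other 6 in 139 of 206 (67.5%). The same order was found in 64 of 103 members (62.1%) and in 22.9% of coding IDs. In 99 of the 206 the mean of those other 6 libraries was at most 25% above vehicle.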
